A study of Mus musculus with 8 samples.

Results

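Sarcomere and myofibre genes encode the contractile filaments of striated muscle, the discs and lattices that hold them, and the membrane and energy systems that serve them. The 37 genes described here were chosen by name: a row of the deposited counts was taken when its Ensembl gene ID mapped to a listed symbol in GENCODE release M21. All 37 were found, each with 1 protein-coding gene ID, among the 20781 genes of the table. They comprise 6 myosin heavy chains (Myh1, Myh2, Myh3, Myh4, Myh7, Myh8), 5 myosin light chains (Mylpf, Myl1, Myl2, Myl3, Myl4) and 8 thin filament genes (Acta1, Tnni1, Tnni2, Tnnt1, Tnnt3, Tnnc1, Tnnc2, Neb). A further 9 belong to titin, the Z-disc and intermediate filaments (Ttn, Actn2, Actn3, Myoz1, Myoz2, Tcap, Ldb3, Myot, Des), 5 to calcium handling (Casq1, Casq2, Ryr1, Atp2a1, Pvalb) and 4 to energy and oxygen supply (Ckm, Ckmt2, Mb, Eno3).

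In the sarcomere, myosin heavy chains form thick filaments whose heads pull on thin filaments of actin, and the troponin complex on the thin filament releases that pull when calcium binds. Thin filaments are anchored at the Z-disc by alpha-actinin, and titin spans from the Z-disc to the middle of the sarcomere. Myofibres and differentiating myoblasts are the main producers of these proteins in skeletal muscle, whereas fibro-adipogenic progenitors (FAPs) are mesenchymal cells of the muscle interstitium, known as a source of fibroblasts and adipocytes.

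Bulk RNA sequencing covered cultured FAPs. Per the labels their source was uninjured muscle (tibialis anterior, quadriceps and gastrocnemius) of wild-type male mice, whose strain is given as C57BL/6 in the sample labels and C57BL/6J in the design text. After 48 h in culture the cells received vehicle for 24 h (4 libraries) or melatonin, a pineal hormone, for 24 h (4 libraries); no genetic change is named in either group. Neither a melatonin concentration nor the age of the mice is given in the sources used here, and the extraction protocol names longissimus dorsi, another muscle. The labels call the 4 samples of a group biological replicates, but nothing says which animals or cultures they came from, so p-values measure the spread between these samples.

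Library totals ran from 35584931 counts in melatonin 4 to 52401153 in vehicle 4. Expression is given as CPM, counts relative to a library total scaled with TMM factors, and differences as log2 fold changes of melatonin over vehicle from edgeR's quasi-likelihood F-test, with p-values adjusted by the Benjamini-Hochberg method over all 16565 tested genes and a threshold of 0.05. Where a gene had 0 counts, up to 3 counts could have been missed, or 0.0804 CPM at the lowest depth, and this limit covers counting error only. The FAP marker Pdgfra, a receptor of platelet-derived growth factors, stood at 508 to 630.2 CPM in the vehicle libraries, at 491.1 to 508.8 CPM in melatonin 1 to 3 and at 354.2 CPM in melatonin 4. The satellite cell markers Pax7 and Myf5 were not found among the genes of the deposited counts, so no values are given for them. Melatonin 4 stands apart from the other melatonin libraries in most of the genes described, and fold changes below are given with and without it. Leaving it out was 1 of 8 such single omissions, but it is singled out because of its values in these genes, so the results without it describe how the comparison depends on that library and are not an independent test.

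To show the regulatory sequence of genes that the results turn on, the 250 bases before the start site of 4 members are printed 5′ to 3′ on the strand of the gene, from RefSeq on GRCm38.p6. Acta1 was the member that passed the test upwards, Mylpf had the next smallest adjusted p among the higher members, Tnnc1 had a like profile over the libraries, and Mb was below the vehicle range in melatonin 1 and 3, unlike these. Capitals mark 3 motifs of muscle promoters: the E-box CAGCTG, bound by myogenic helix-loop-helix factors; the MCAT element CATTCC, read on either strand, bound by TEAD factors; and the CArG box, bound by serum response factor. No 2 marked motifs overlapped.
Acta1 (chr8:123894776-123895025, minus strand): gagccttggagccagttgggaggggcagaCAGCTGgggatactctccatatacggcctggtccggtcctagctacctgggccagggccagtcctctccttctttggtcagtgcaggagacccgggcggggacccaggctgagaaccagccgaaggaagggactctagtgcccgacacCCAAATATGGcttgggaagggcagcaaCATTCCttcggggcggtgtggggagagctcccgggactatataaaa
Mylpf (chr7:127211358-127211607, plus strand): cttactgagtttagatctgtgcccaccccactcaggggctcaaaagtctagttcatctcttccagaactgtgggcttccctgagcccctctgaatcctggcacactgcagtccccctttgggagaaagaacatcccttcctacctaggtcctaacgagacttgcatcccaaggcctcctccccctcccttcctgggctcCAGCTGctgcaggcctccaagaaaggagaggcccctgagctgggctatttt
Tnnc1 (chr14:31208062-31208311, plus strand): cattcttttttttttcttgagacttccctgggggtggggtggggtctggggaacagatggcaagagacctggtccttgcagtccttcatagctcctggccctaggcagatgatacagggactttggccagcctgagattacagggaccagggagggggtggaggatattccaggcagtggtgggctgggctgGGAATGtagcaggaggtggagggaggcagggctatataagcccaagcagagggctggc
Mb (chr15:77022788-77023037, minus strand): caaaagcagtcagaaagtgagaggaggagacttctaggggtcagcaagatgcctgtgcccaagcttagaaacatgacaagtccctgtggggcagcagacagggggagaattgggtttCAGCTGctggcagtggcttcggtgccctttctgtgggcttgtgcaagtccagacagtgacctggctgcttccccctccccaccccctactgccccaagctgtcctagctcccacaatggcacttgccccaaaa
The Acta1 stretch holds all 3 motifs, beginning 221 bases (E-box), 73 bases (CArG box) and 46 bases (MCAT) before the start. An E-box begins 51 bases before the start in Mylpf and 133 bases before it in Mb, and Tnnc1 holds an MCAT element on its other strand (printed as GGAATG) that begins 58 bases before the start. Mb has 3 annotated start sites, and the 1 shown is not the most upstream.

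RefSeq windows of 300 bases, from 250 before to 50 after a start, were matched for 30 of the 37 members (37 windows). Tnni2, Tnnt3, Neb, Actn3, Myoz1, Tcap and Myot had no entry. The E-box CAGCTG was present in 17 of the 37 windows (45.9%), against 16.3% of all 32851 windows of the same length. MCAT elements were in 9 windows (24.3%, against 14.7%), CArG boxes in 5 (13.5%, against 1.63%) and MEF2 sites in 7 (18.9%, against 3.19%), each searched on both strands. Windows of 1 gene can overlap each other, and a match describes letters only. Acta1, Mylpf and Mb each held an E-box, while the windows of Myh3, Myl4, Tnnt1 and Tnnc2 held none of these motifs.

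In summed level, the 37 genes measured 463.6, 357, 382 and 410.2 CPM in vehicle 1 to 4 and 662.9, 875.9, 609.4 and 244 CPM in melatonin 1 to 4. Melatonin 1 to 3 were therefore above every vehicle library and melatonin 4 was below every one. Means were 403.2 ± 45.8 CPM (SD, n = 4) for vehicle and 598.1 ± 262.6 CPM (SD, n = 4) for melatonin, a ratio of 1.48, and the ratio was 1.78 without melatonin 4. Melatonin 4 itself held 0.341 of the mean of the other melatonin libraries. As a share of all counts, the 37 genes made up 0.0338 to 0.0452% of the vehicle libraries, 0.0656 to 0.0919% of melatonin 1 to 3 and 0.0256% of melatonin 4. The pattern was the same without Acta1, as the other 36 genes summed to 312.6 to 405.4 CPM in vehicle, 501.7 to 716.8 CPM in melatonin 1 to 3 and 196.1 CPM in melatonin 4. In bulk RNA, fewer cells of a type and less RNA per cell cannot be told apart.

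**Figure D1:**
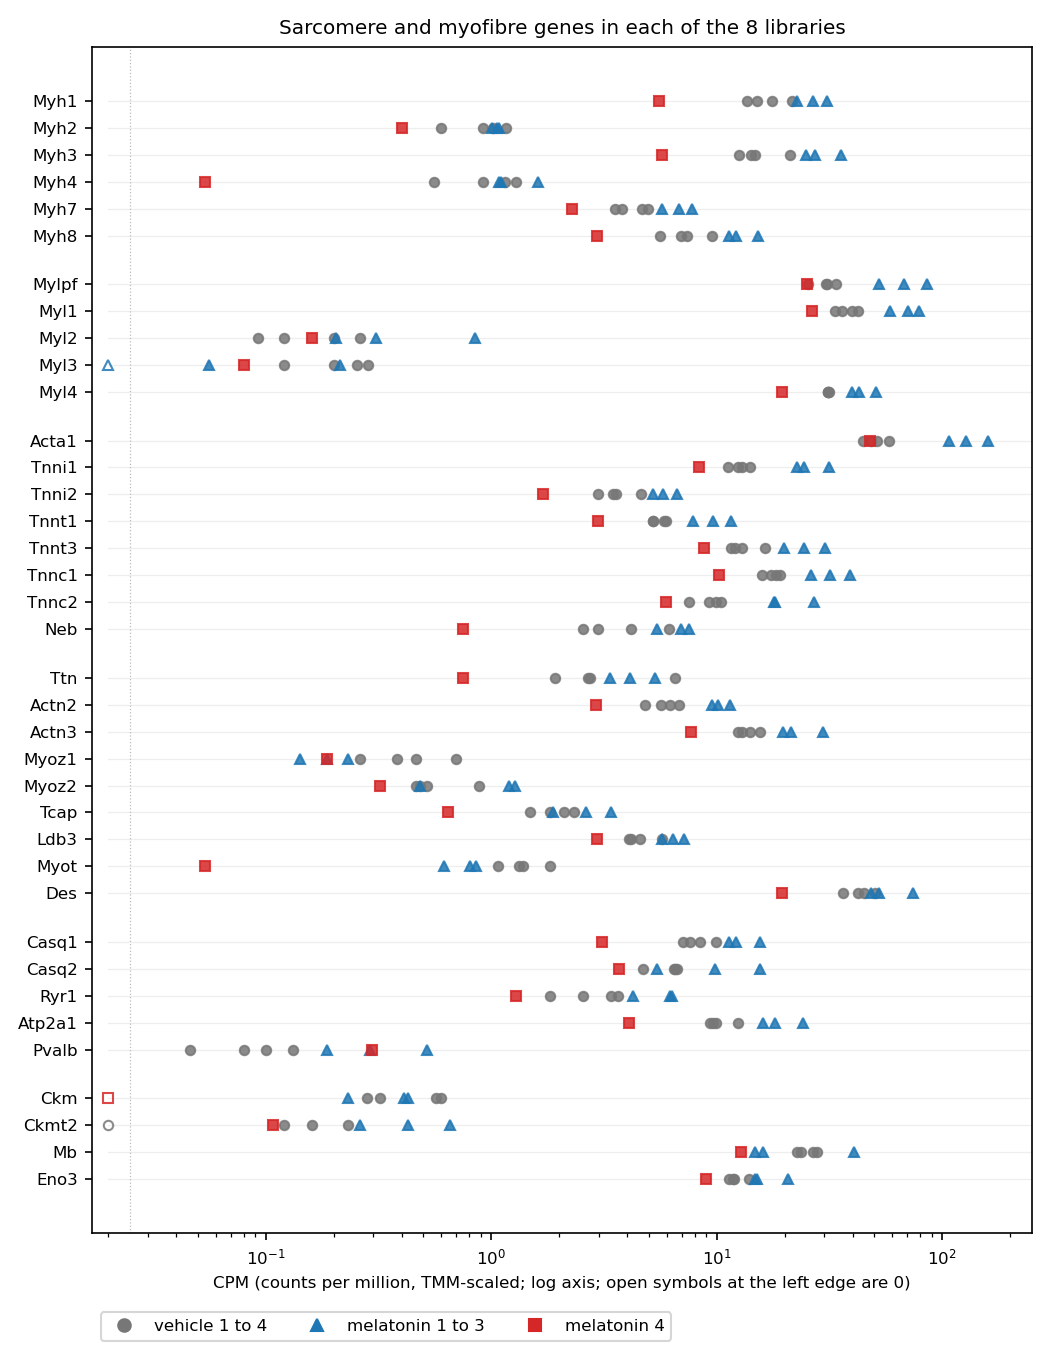
CPM of each of the 37 genes (log axis) in the 4 vehicle libraries (grey circles), melatonin 1 to 3 (blue triangles) and melatonin 4 (red squares), with open symbols at the left edge for 0 counts. Melatonin 4 lay below every vehicle library in 32 of the 35 tested genes (37.5% of all tested genes), whereas melatonin 1 to 3 lay mostly at or above the vehicle range.

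With all 8 libraries, 35 of the 37 genes had enough counts to be tested, and 1 rose (Acta1) and 1 fell (Myoz1). Among all tested genes 36.5% passed (18.1% higher, 18.5% lower), a share that the members, at 2 of 35, did not reach. With library totals in place of TMM factors 2 members passed upwards and 1 downwards, against 30.8% and 13.5% of all genes (44.3% in all). Under TMM, 28 of 35 were positive, with a median log2 fold change of 0.48 against 0.01 over all tested genes, and 6 had an unadjusted p under 0.05. DESeq2 called 5 members higher and 2 lower, against 19.2% and 20.3% of all genes (39.4% in all), and its additions were Mylpf (DESeq2 adjusted p = 0.00471), Tnnc2 (0.0237), Tnni1 (0.0303) and Myl1 (0.0488) upwards and Myot (0.0378) downwards.

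Without melatonin 4, 21 of the same 35 genes passed upwards and 2 downwards, against 38.9% of the 16884 genes tested in those 7 libraries (19.5% higher, 19.4% lower). There, 31 of the 35 fold changes were positive and the median was 0.74 on the log2 scale, against 0.02 over all genes. Myl3 and Pvalb, too low for the test with all libraries, entered with a library left out, each through the group where it was higher, and are therefore left out of these counts. Groups did not overlap in CPM for 0 higher and 2 lower of the 35 tested members over 8 libraries, where 37.7% of all genes did not overlap, and for 21 higher and 2 lower of the same 35 without melatonin 4, where 45.6% did not. In both cases the 2 lower genes were Myoz1 and Myot. Shares of all genes without overlap were 18.5% higher and 19.2% lower with all libraries and 22.9% and 22.7% without melatonin 4.

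The other settings gave 0 to 2 calls upwards and 0 or 1 downwards among these 35 genes. At a mean CPM of at least 1 only 27 of them were tested, and Myoz1 was not. Beside these counts, the share of all genes that passed was 36.2% with RLE factors, 36.7% with upper-quartile factors, 28.9% without a filter, 40.7% at a mean CPM of at least 1, 36.8% with limma-voom, 36.6% with the non-robust fit, 29.8% with the replicate number as a block, 21.1% with a minimum fold of 1.2 and 23.3% at a threshold of 0.01. With vehicle 1 to 4 left out in turn it was 30.4, 31.5, 30.3 and 30.5%, and with melatonin 1 to 3 left out it was 31.3, 31.5 and 33.6%. In each of these 7 omissions 0 of the 35 passed upwards by edgeR, Acta1 included (unadjusted p under 0.05 for 1 to 3 of the higher genes), and no other tool was run on them. Without melatonin 4 the other tools also called many of the 35: DESeq2 called 25 higher and 2 lower (40.2% of all genes), limma-voom 22 and 1 (39.1%) and the replicate block 14 and 1 (29.3%), combinations chosen after seeing the data.

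**Figure D2:**
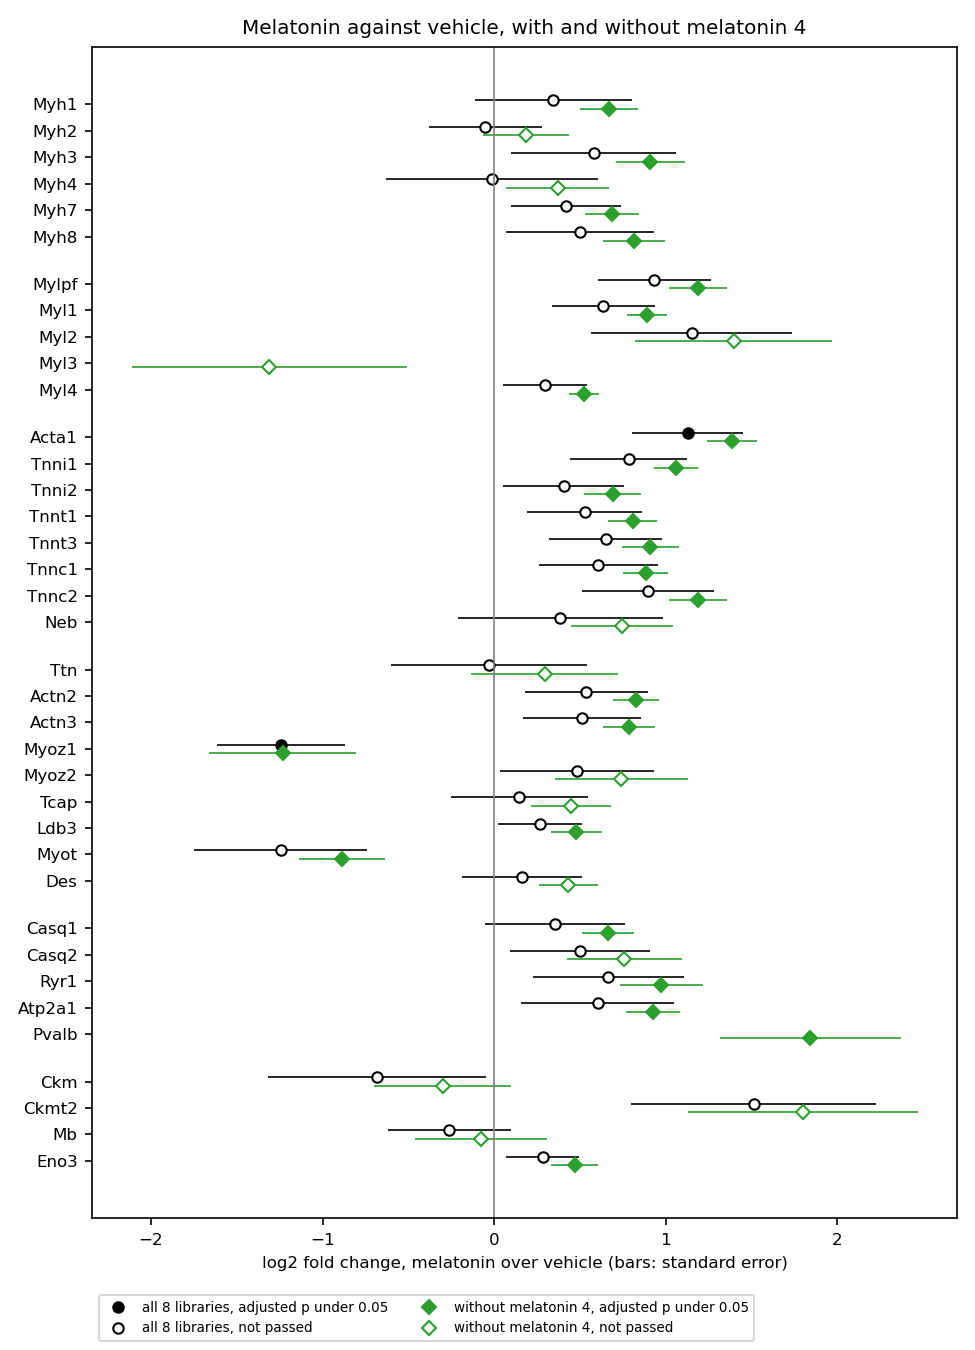
Log2 fold change of melatonin over vehicle for each gene with its standard error, from all 8 libraries (black) and without melatonin 4 (green), with filled symbols where the edgeR adjusted p was under 0.05. Acta1 and Myoz1 are the filled black symbols, and the green bars are shorter for most genes. Among the 35 genes tested with all libraries, 21 green symbols are filled upwards and 2 downwards (19.5% and 19.4% of all genes). Pvalb is also drawn filled in green, but it entered through its higher melatonin counts and is not counted.

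Among thick filament genes, no myosin heavy chain passed with all libraries (0 of 6; unadjusted p under 0.05 for 0, DESeq2 0), and 4 of 6 passed upwards without melatonin 4 (18.1% and 19.5% of all genes were higher in these fits). Myh3, the embryonic heavy chain, measured 21.1, 12.5, 14.8 and 14.2 CPM in vehicle and 25, 35.5, 27.2 and 5.71 CPM in melatonin. Myh8, the perinatal chain, measured 9.55, 5.6, 7.38 and 6.92 CPM in vehicle and 11.3, 15.2, 12.1 and 2.95 CPM in melatonin. In both genes melatonin 1 to 3 lay above all vehicle libraries and melatonin 4 below all of them. The log2 fold change of Myh3 was 0.58 ± 0.48 (SE; edgeR adjusted p = 0.396), and 0.91 ± 0.20 without melatonin 4 (edgeR adjusted p = 0.00829). For Myh8 the values were 0.50 ± 0.43 and 0.81 ± 0.18, the latter with an edgeR adjusted p of 0.00595.

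The adult fast chain Myh1 (type IIx) followed the developmental chains at 21.6, 13.6, 15 and 17.5 CPM in vehicle and 22.8, 30.8, 26.7 and 5.55 CPM in melatonin. Its melatonin 1 exceeded the highest vehicle library by little, and its log2 fold change of 0.34 ± 0.46 became 0.67 ± 0.17 without melatonin 4 (edgeR adjusted p = 0.0144). Myh7, the slow and cardiac beta chain, measured 3.54 to 4.97 CPM in vehicle, 5.75 to 7.78 CPM in melatonin 1 to 3 and 2.28 CPM in melatonin 4. Its log2 fold change was 0.42 ± 0.32 with all libraries (edgeR adjusted p = 0.345). Without melatonin 4 it passed at 0.68 ± 0.16 (edgeR adjusted p = 0.00677). The remaining fast chains Myh2 (IIa) and Myh4 (IIb) were near 1 CPM in most libraries, with 0.602 to 1.17 CPM and 0.555 to 1.28 CPM in vehicle, and melatonin 1 to 3 fell inside or just above those ranges. Melatonin 4 held 0.402 CPM of Myh2 and 0.0536 CPM of Myh4, which was 2 counts. Neither gene passed with or without melatonin 4, at log2 fold changes of -0.05 ± 0.33 and -0.01 ± 0.62 with it and 0.18 ± 0.25 and 0.37 ± 0.30 without it, and with library totals as the scaling both signs turned positive (0.10 and 0.14).

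Myh3, Myh2, Myh1, Myh4 and Myh8 lie in this order on the plus strand of chromosome 11 (GRCm38), from the start of Myh3 at 67078300 to the end of Myh8 at 67308634, and reads from near-identical stretches can be assigned to the wrong copy. Of all 50-base words in the annotated transcripts, 30.5% of those of Myh1, 24.6% of Myh2, 18.9% of Myh4, 12.1% of Myh8 and 4.76% of Myh3 occur in another gene. For Myh1, Myh2, Myh4 and Myh8 that was mostly another of these 4, and for Myh3 most often Myh13, a further heavy chain. For Myh7 the share was 20%, mostly with the cardiac alpha chain Myh6, which measured 0.282 to 0.44 CPM in vehicle and 0.165 to 0.466 CPM in melatonin. How the authors' counting treated such reads is not given in the sources used here, so the split among these chains is uncertain.

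Per kilobase of annotated exon, Myh3 and Myh1 made up most of the heavy chain level in every library. Myh3 held 40.4, 39.2, 39 and 36.1% in vehicle and 41.6, 44.3, 41.9 and 39.3% in melatonin, and Myh1 held 36.2 to 42.5% over the 8 libraries. Myh8 contributed 9.04 to 10.5%, Myh7 6 to 11%, Myh2 1.15 to 2.35% and Myh4 0.372 to 3.29%. The mix in melatonin 4 resembled that of the other libraries while its summed level was low: its Myh3, Myh1 and Myh8 shares were 39.3, 36.4 and 10.5%, although it had the lowest Myh4 share and the highest Myh7, Myh8 and Myh2 shares of the 8 libraries. These shares depend on the length used; with the longest transcript in place of all exons, Myh8 held 15.2 to 17.3% and Myh3 32 to 39.3%.

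**Figure D3:**
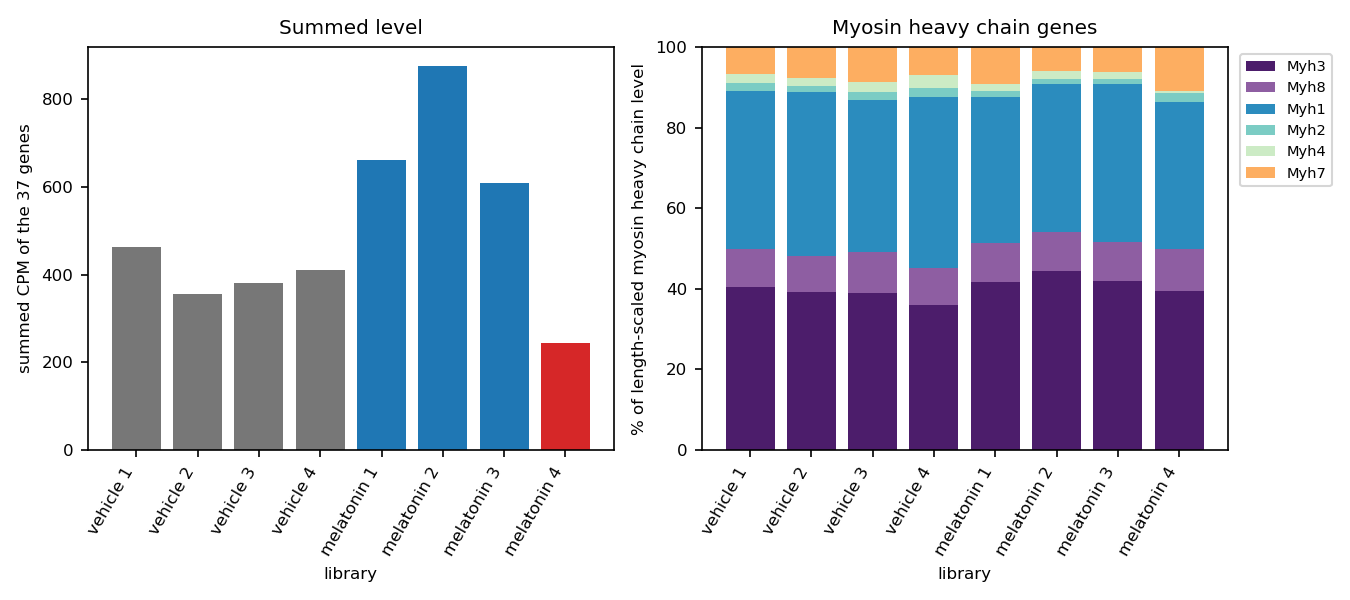
Left, summed CPM of the 37 genes in each library, with 0 at the base of the bars; right, each myosin heavy chain's share (%) of the summed heavy chain level per kilobase of exon. The sum ran from 244 CPM in melatonin 4 to 875.9 CPM in melatonin 2, while Myh3 stayed between 36.1 and 44.3% and Myh1 between 36.2 and 42.5% of the heavy chain level.

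Light chains sit at the neck of the myosin head. None of the 4 tested passed with all libraries by edgeR (unadjusted p under 0.05 for 1, DESeq2 2), and 3 of these 4 passed upwards without melatonin 4 (all genes 18.1% and 19.5% higher). Mylpf, the fast regulatory light chain, measured 30.7, 30.6, 25.4 and 33.9 CPM in vehicle and 67.6, 85.2, 52.4 and 25 CPM in melatonin, so that melatonin 1 to 3 were well above the vehicle range and melatonin 4 was just under it. Its log2 fold change was 0.93 ± 0.33 (edgeR adjusted p = 0.0596), and 1.19 ± 0.17 without melatonin 4 (edgeR adjusted p = 0.000981). Myl1, the fast essential light chain, measured 42.1, 33.3, 35.8 and 39.6 CPM in vehicle and 70.5, 79, 58.7 and 26.4 CPM in melatonin, at 0.64 ± 0.30 with and 0.89 ± 0.12 without melatonin 4.

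Myl4, the light chain of embryonic muscle and atria, had the tightest vehicle values of the 37 genes in proportion to their mean, at 31, 31.4, 31 and 31 CPM, against 42.6, 50.8, 39.8 and 19.4 CPM in melatonin. Its fold change was small at 0.30 ± 0.24 and passed at 0.52 ± 0.09 without melatonin 4 (edgeR adjusted p = 0.00109). Ventricular and slow light chains were scarce. Myl2 measured 0.0926 to 0.263 CPM in vehicle and 0.161 to 0.85 CPM in melatonin, and did not pass (1.15 ± 0.59 with all libraries and 1.40 ± 0.57 without melatonin 4). Myl3 had 6 to 13 counts in the vehicle libraries and 0, 9, 3 and 3 in the melatonin libraries, too few for the test with all libraries.

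On the thin filament, 1 of 8 genes rose with all libraries and 7 of 8 passed upwards without melatonin 4 (all genes 18.1% and 19.5% higher). Acta1, skeletal alpha-actin (ENSMUSG00000031972), measured 58.2, 44.4, 48.3 and 51.2 CPM in vehicle and 127, 159, 108 and 47.9 CPM in melatonin. Melatonin 1 to 3 lay far above the vehicle libraries, and melatonin 4 lay among them. Its log2 fold change of 1.13 ± 0.32 (edgeR adjusted p = 0.0283) was the only 1 of the higher members to pass. Omitting any other library than melatonin 4 took the edgeR adjusted p over the threshold, to between 0.05005 and 0.0744, while omitting melatonin 4 gave 1.39 ± 0.15 with an edgeR adjusted p of 0.000168.

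Actc1, the cardiac alpha-actin that is also made in immature skeletal muscle, measured 9.12 to 12.4 CPM in vehicle, 15.4 to 24.6 CPM in melatonin 1 to 3 and 7.37 CPM in melatonin 4. Per kilobase, Acta1 made up 83.2, 83.7, 82.8 and 85.2% of the sum of both sarcomeric actins in vehicle and 88, 87.2, 88.1 and 87.2% in melatonin. Groups did not overlap in this ratio, and melatonin 4 sat with the other melatonin libraries in it although its actin levels did not. The ratio was examined after its values were seen and carries no test.

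Troponin genes had like profiles. Tnni1, slow troponin I, measured 14, 11.2, 12.4 and 12.9 CPM in vehicle and 24.4, 31.4, 22.7 and 8.34 CPM in melatonin, at 0.78 ± 0.34 with all libraries and 1.06 ± 0.13 without melatonin 4 (edgeR adjusted p = 0.000145). Tnnc1, the slow and cardiac calcium sensor troponin C, measured 19.1, 15.9, 18.4 and 17.3 CPM in vehicle and 31.8, 39.2, 26.2 and 10.3 CPM in melatonin, and went from 0.61 ± 0.35 to 0.88 ± 0.13. In each, the 3 high libraries were melatonin 1 to 3, the lowest of all 8 was melatonin 4, and vehicle libraries were close together.

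Tnnt3, fast troponin T, measured 11.6 to 16.4 CPM in vehicle, 19.9 to 30.2 CPM in melatonin 1 to 3 and 8.79 CPM in melatonin 4. Its slow counterpart Tnnt1 measured 5.19 to 5.95, 7.82 to 11.6 and 2.98 CPM in the same order, and fast troponin I, Tnni2, 2.98 to 4.61, 5.23 to 6.66 and 1.69 CPM. Tnnt3, Tnnt1 and Tnni2 did not pass with all libraries (0.65 ± 0.33, 0.53 ± 0.34 and 0.41 ± 0.35). They passed without melatonin 4, at 0.91 ± 0.17, 0.81 ± 0.14 and 0.69 ± 0.17. Tnnc2, fast troponin C, measured 10.4, 7.5, 9.2 and 9.9 CPM in vehicle and 18.2, 26.9, 17.9 and 5.98 CPM in melatonin, at 0.90 ± 0.38 and, without melatonin 4, 1.19 ± 0.17. Tnnc2 overlaps Ube2c, a cell cycle gene on the opposite strand, with which 47.9% of its 50-base words are shared, and the use of strand in the counting is not given. Ube2c had a log2 fold change of 0.11 ± 0.11, and of 0.02 ± 0.09 without melatonin 4.

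Slow and fast forms of troponin were compared by their mix. Tnni1 held 55.8 to 63.4% of the troponin I level per kilobase in vehicle and 62.1 to 67.2% in melatonin, Tnnt3 held 73.1 to 79.6% and 78 to 80.4% of troponin T, and Tnnc1 held 57.3 to 61.9% and 52.8 to 57.3% of troponin C. The ranges overlapped between groups in each of these pairs, though in troponin C only at their edge. Neb, nebulin, which runs along the thin filament, measured 6.15, 2.55, 2.98 and 4.15 CPM in vehicle and 5.42, 7.51, 6.92 and 0.751 CPM in melatonin. Its vehicle 1 was above melatonin 1, and it did not pass with melatonin 4 (0.38 ± 0.60) or without it (0.74 ± 0.30, edgeR adjusted p = 0.0825).

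Of the 9 genes of titin, the Z-disc and intermediate filaments, 1 fell with all libraries, and 3 passed upwards and 2 downwards without melatonin 4, where 19.5% of all genes were higher and 19.4% lower (18.1% and 18.5% with all libraries). Actn2 and Actn3 encode the alpha-actinins that cross-link thin filaments. Actn2 measured 4.81 to 6.82 CPM in vehicle, 9.55 to 11.5 CPM in melatonin 1 to 3 and 2.92 CPM in melatonin 4, and Actn3 measured 12.4 to 15.6, 19.8 to 29.7 and 7.67 CPM in the same order. They did not pass with all libraries (0.54 ± 0.36 and 0.51 ± 0.34) and passed without melatonin 4 at 0.83 ± 0.14 and 0.79 ± 0.15. Actn3 held 73 to 77.9% of their summed level per kilobase in all 8 libraries. Ldb3, a PDZ and LIM protein bound to actinin, stood at 0.27 ± 0.25 with all libraries (edgeR adjusted p = 0.439). It passed at 0.48 ± 0.15 (edgeR adjusted p = 0.0298) without melatonin 4.

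Myoz1 and Myot ran the other way. Myoz1 (ENSMUSG00000068697), a calcineurin-binding Z-disc protein of fast fibres, measured 0.463, 0.694, 0.263 and 0.381 CPM in vehicle and 0.232, 0.142, 0.187 and 0.188 CPM in melatonin, from 12 to 30 counts and 6 to 12 counts. All melatonin libraries lay below all vehicle libraries, with melatonin 4 level with the others of its group. The log2 fold change was -1.24 ± 0.37 (edgeR adjusted p = 0.0263). Single omissions of vehicle 1, vehicle 2, melatonin 2 or melatonin 3 took the edgeR adjusted p to between 0.0587 and 0.0821, and the value without melatonin 4 was -1.23 ± 0.43 (edgeR adjusted p = 0.0453).

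Myot, myotilin of the Z-disc, measured 1.83, 1.39, 1.07 and 1.32 CPM in vehicle and 0.852, 0.803, 0.616 and 0.0536 CPM in melatonin. Every melatonin library was below every vehicle library, and melatonin 4, with 2 counts, was far below the rest. The log2 difference was -1.24 ± 0.50 with all libraries, which did not pass (edgeR adjusted p = 0.0813), and -0.89 ± 0.25 without melatonin 4, which did (edgeR adjusted p = 0.0189). Myoz2, the slow counterpart of Myoz1, measured 0.885, 0.463, 0.482 and 0.521 CPM in vehicle and 1.2, 1.28, 0.485 and 0.322 CPM in melatonin. Myoz2 did not pass with melatonin 4 (0.48 ± 0.45) or without it (0.74 ± 0.39).

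Ttn, the giant spring protein, measured 6.54, 1.92, 2.7 and 2.75 CPM in vehicle and 3.35, 4.11, 5.32 and 0.751 CPM in melatonin. Vehicle 1 was the highest of all libraries and melatonin 4 the lowest, and its log2 fold change was -0.03 ± 0.57 with all libraries (0.12 with library totals as the scaling) and 0.29 ± 0.43 without melatonin 4. Tcap, which caps titin at the Z-disc, measured 1.49 to 2.33 CPM in vehicle, 1.88 to 3.4 CPM in melatonin 1 to 3 and 0.644 CPM in melatonin 4. Tcap passed neither with all libraries (0.15 ± 0.40) nor without melatonin 4 (0.45 ± 0.23). Des, desmin, the intermediate filament of muscle, measured 50.3, 36.3, 42.3 and 45 CPM in vehicle and 52.4, 74.1, 48.2 and 19.5 CPM in melatonin. Its groups overlapped with and without melatonin 4, at 0.16 ± 0.35 and 0.43 ± 0.17 (edgeR adjusted p = 0.0857 in the latter).

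Among calcium-handling genes, none of the 4 tested passed with all libraries (unadjusted p under 0.05 for 0, DESeq2 0), and 3 of these 4 passed upwards without melatonin 4 (all genes 18.1% and 19.5% higher). Atp2a1, the calcium pump of fast fibres, measured 12.4, 9.3, 9.58 and 9.94 CPM in vehicle and 16, 24.2, 18.1 and 4.1 CPM in melatonin, at 0.60 ± 0.45 and, without melatonin 4, 0.93 ± 0.16 (edgeR adjusted p = 0.0014). Ryr1, the calcium release channel, measured 3.64, 1.83, 2.56 and 3.39 CPM in vehicle and 4.24, 6.19, 6.36 and 1.29 CPM in melatonin, at 0.67 ± 0.44 and 0.97 ± 0.24. Casq1, the fast calsequestrin that stores calcium, measured 7.08 to 9.91 CPM in vehicle, 11.3 to 15.6 CPM in melatonin 1 to 3 and 3.08 CPM in melatonin 4. Its log2 fold change was 0.35 ± 0.41 with all libraries and 0.67 ± 0.15 without melatonin 4. All 3 genes thus put melatonin 4 under the vehicle range. For Atp2a1, 18% of its 50-base words are shared with another gene, mostly Rabep2 on the opposite strand.

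The slow calsequestrin Casq2 measured 6.54, 4.72, 6.66 and 6.43 CPM in vehicle and 5.42, 15.5, 9.79 and 3.67 CPM in melatonin. Only melatonin 2 and 3 thus exceeded the vehicle libraries. Casq2 did not pass with melatonin 4 (0.50 ± 0.41) or without it (0.76 ± 0.34). Casq1 held 62.4 to 68% of the calsequestrin level per kilobase in vehicle but 54.1 to 75.9% in melatonin, the widest spread among the pairs compared. Pvalb, parvalbumin, a calcium buffer of fast fibres, had 5, 2, 6 and 4 counts in vehicle and 15, 22, 10 and 11 in melatonin. Melatonin 4 was here among the high libraries, unlike in most other members. The gene was too low to be tested with all libraries. With any 1 library left out it entered the test only through its higher melatonin counts, so its direction there was set by the filter and no test of it is given. With no filter and all 8 libraries its log2 fold change was 1.81 ± 0.49 (edgeR adjusted p = 0.0189).

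In energy and oxygen supply, no gene passed with all libraries (0 of 4; unadjusted p under 0.05 for 0, DESeq2 0) and 1 of 4 passed upwards without melatonin 4 (all genes 18.1% and 19.5% higher). That gene was Eno3, muscle enolase, at 11.3 to 13.9 CPM in vehicle, 14.7 to 20.6 CPM in melatonin 1 to 3 and 8.96 CPM in melatonin 4, with 0.28 ± 0.21 and, without melatonin 4, 0.47 ± 0.14 (edgeR adjusted p = 0.0221). Mb, myoglobin, measured 27.9, 22.7, 23.7 and 26.7 CPM in vehicle and 14.8, 40.5, 16.1 and 12.8 CPM in melatonin. Only melatonin 2 exceeded the vehicle range, and the other melatonin libraries were all below it. Its log2 difference was -0.26 ± 0.36 with all libraries and -0.08 ± 0.38 without melatonin 4, but -0.78 with an edgeR adjusted p of 0.00119 when melatonin 2 was left out. Of its 50-base words, 24.9% also occur in a transcript on the opposite strand, Gm49540, or in Apol6.

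Creatine kinases, which buffer the energy of contraction and are abundant in mature fibres, had few counts. Ckm, the muscle form, had 16, 26, 26 and 14 counts in vehicle and 12, 18, 22 and 0 in melatonin, and Ckmt2, the mitochondrial form, had 8, 10, 0 and 6 counts in vehicle and 34, 18, 14 and 4 in melatonin. Neither passed, at log2 -0.68 ± 0.64 and 1.51 ± 0.72 with all libraries and -0.30 ± 0.40 and 1.80 ± 0.67 without melatonin 4. Scaled to kilobases of exon, the highest vehicle levels among the 37 genes were those of Acta1 (32.9 ± 3.79 CPM per kb; SD, n = 4), Mylpf (28.4 ± 3.31), Myl1 (18.2 ± 1.89), Tnnc1 (17 ± 1.37) and Mb (16.9 ± 1.62). On this length Myl1, Tnnc1 and Mb did not differ beyond their spread, and the vehicle ranges of Acta1 and Mylpf overlapped. The order depends on the length used: with the longest transcript Mylpf stood at 39.4 ± 4.59, Acta1 at 34.9 ± 4.03, Myl1 at 34.9 ± 3.63, Tnnc1 at 24.5 ± 1.97 and Mb at 22.9 ± 2.18 CPM per kb, so that Myl1 was level with Acta1 and above Tnnc1 and Mb. Per kilobase of exon, lower levels were those of Myh1 (2.66), Myh3 (2.58), Ckm (0.152) and Ttn (0.0297), the last of the 37.

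Covariation was examined as the Pearson correlation of log2 CPM between members, after each library's value was centred on the mean of its own group, so that the difference between groups does not enter. Over the 8 libraries the median of the 595 pairs of tested members was 0.93, from -0.66 to 0.998, and 90.9% of pairs exceeded 0.5, against a median of 0 and 17.4% for pairs of all tested genes. Without melatonin 4 the median was 0.63 and 62% of pairs exceeded 0.5 (all genes 16.9%), and without both vehicle 1 and melatonin 4 it was 0.58 and 56.5% (all genes 20.4%). The pattern thus rests in large part on melatonin 4 and continues at a lower level without it. Points of such a correlation share their library and its depth, the values serve as a description of few libraries, and no p is given.

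Members were not equally tied to the rest. The median correlation with the other members was highest for Actn3 (0.97), Atp2a1 (0.97), Myl1 (0.97) and Casq1 (0.97), and Acta1 stood at 0.97 as well. Low values were found for Myoz1 (-0.12), Ckmt2 (0.52), Myl2 (0.60) and Mb (0.64), of which Myoz1, Ckmt2 and Myl2 are among the genes with few counts. When melatonin 4 was left out, Tnnc2 (0.79), Des (0.78), Tnni1 (0.78) and Acta1 (0.77) had the highest values, while Mb stood at 0.68. The widest drops were those of Ckm, from 0.83 to -0.23, Myh7, from 0.92 to 0.36, and Ckmt2, from 0.52 to 0.03.

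**Figure D4:**
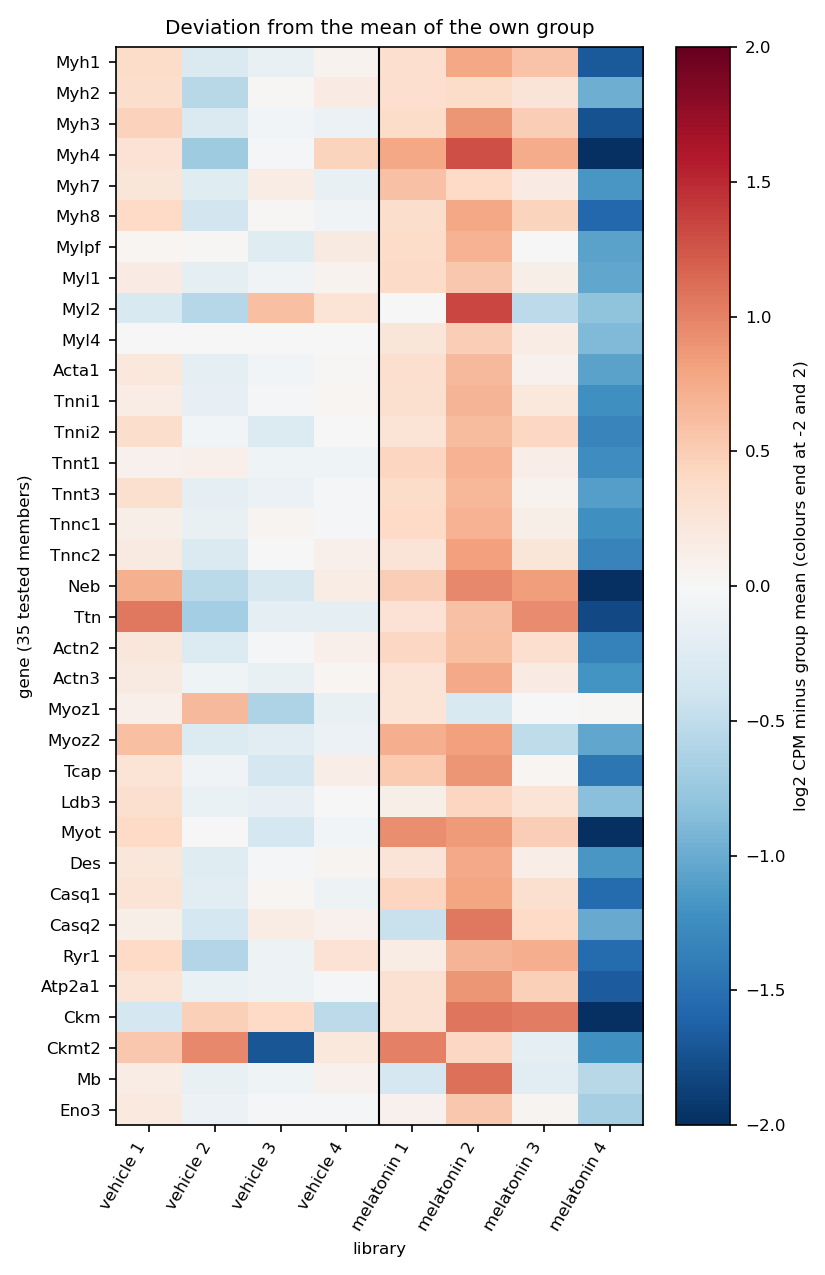
Log2 CPM of the 35 tested genes minus the mean of the own group (colour, limits -2 and 2), with vehicle libraries on the left and melatonin libraries on the right of the black line. Nearly all genes are blue in melatonin 4 and red in melatonin 2, and most have weaker shades in vehicle 1 (red) and vehicle 2 (blue). Genes that depart include Myoz1, Ckm and Ckmt2 (red in vehicle 2), Myl2 (blue in vehicle 1) and Mb (blue in melatonin 1 and 3).

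Single libraries ordered the members in the same way across roles. Melatonin 4 was the lowest of its group in 34 of the 35 tested members (all but Myoz1), a position it took in 36.5% of all tested genes, and melatonin 2 was the highest in 29, against 18.8% of all genes. Within vehicle, vehicle 1 was the highest in 26 members (all genes 23.9%) and vehicle 2 the lowest in 24 (all genes 26.3%). Relative to the mean of melatonin 1 to 3, melatonin 4 had a median ratio of 0.317 over the tested members, against 0.993 over all tested genes, and was under 0.5 in 32 of 35, against 7.33% of all genes. It was below every vehicle library in 32 of 35, against 37.5% of all genes.

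Transcript length moved with these ratios. Over all tested genes the ratio of melatonin 4 to melatonin 1 to 3 was 1.16 in genes with a longest transcript under 2 kb, 0.99 from 2 to 5 kb and 0.831 at 5 kb or more (medians). Over the members it was 0.354 (15 genes), 0.322 (10 genes) and 0.218 (10 genes) in the same classes, so members were low in each class, and the long genes Neb (0.113), Ttn (0.176) and Ryr1 (0.23) were lower than Mylpf (0.366) or Acta1 (0.365). In vehicle 1 the order ran the other way, with Ttn at 2.66 and Neb at 1.91 times the mean of the other vehicle libraries, against a median of 1.24 over the members. Spearman's rho between length and the melatonin 4 ratio was -0.36 over 35 members and -0.38 over 16522 genes, as a description across genes, which are not independent replicates. No measure of RNA integrity is given in the sources used here, and the part of length in the low members was not tested.

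**Figure D5:**
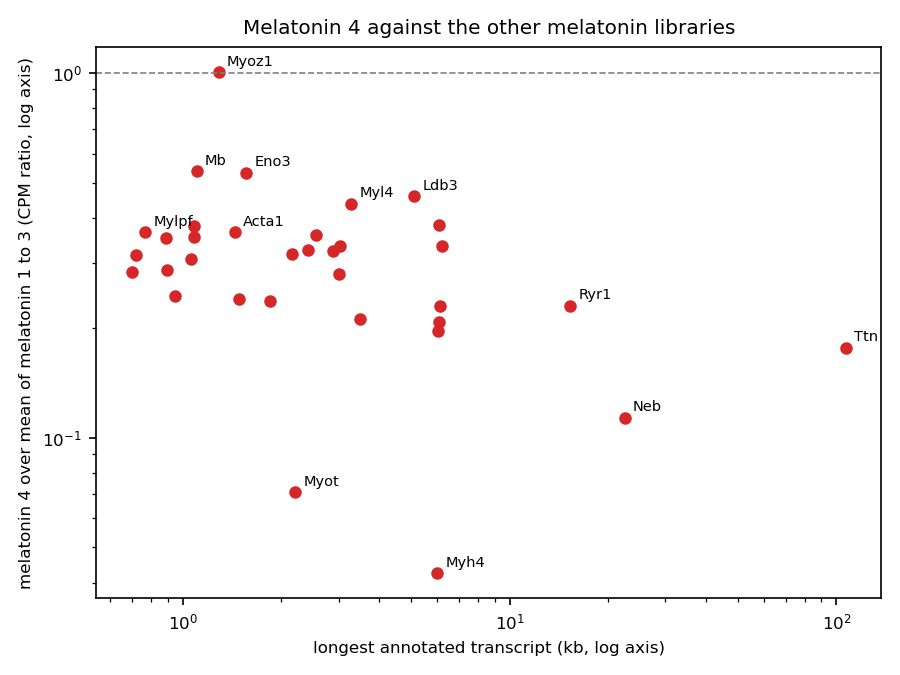
Ratio of CPM in melatonin 4 to the mean of melatonin 1 to 3 (log axis) against the longest annotated transcript (kb, log axis) for the tested genes except Ckm, which had 0 counts in melatonin 4; the dashed line marks equal levels. Myoz1 lies on the line at 1.004, Myot (0.0709) and Myh4 (0.0424) lie lowest, and the members under 2 kb lie between 0.237 and 1.004.

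Markers of other cells that such a culture could hold are given for these libraries. Regulators of myoblast differentiation and fusion moved like the sarcomere genes: Myod1, Myog and Mymk together measured 19.6, 14.8, 16.3 and 13.8 CPM in vehicle and 25, 37.6, 25.5 and 8.47 CPM in melatonin. Singly, Myod1 (0.82 ± 0.41), Myog (0.65 ± 0.30) and Mymk (0.42 ± 0.46) did not pass with all libraries and passed without melatonin 4 at 1.117 ± 0.22, 0.90 ± 0.18 and 0.75 ± 0.19. The whole satellite cell and myoblast list, with 23 of 25 genes in the table, had 3 higher and 5 lower of 21 tested genes (38.1%, against 36.5% of all genes), and 5 and 5 without melatonin 4 (47.6%, against 38.9%). Its summed level was 1017 to 1279 CPM in vehicle, 805.2 to 863.9 CPM in melatonin 1 to 3 and 728.5 CPM in melatonin 4. Such a sum weights the abundant genes of the list most. Gene by gene, with all libraries, 11 of the 21 fold changes were positive and 10 negative, with a median log2 value of 0.02. Cdh15, M-cadherin of satellite cells, measured 0.902 to 2.32 CPM in vehicle and 0.697 to 1.2 CPM in melatonin, Myf6 had 0 counts in melatonin 4 and Fgfr4 0 in melatonin 3.

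Macrophage genes were also low in melatonin 4, which was the lowest melatonin library in 12 of 12, with a summed level of 342 CPM against 591.8 to 649.9 CPM in melatonin 1 to 3 and 496.7 to 758.1 CPM in vehicle. Vehicle 1, the highest vehicle library for most sarcomere genes, had the lowest macrophage sum of its group. The FAP and fibroblast list summed to 27788 to 32858 CPM in vehicle, 17060.3 to 17339.7 CPM in melatonin 1 to 3 and 14896 CPM in melatonin 4. Gene by gene, with all libraries, 1 of the 18 genes passed upwards and 10 downwards (61.1%, against 36.5% of all genes). Melatonin 4 was the highest of its group in 7 of these 18 genes and the lowest in 6. Its median ratio to melatonin 1 to 3 over them was 1.04. The smooth muscle and pericyte list summed to 2557 to 2897 CPM in vehicle, 1489 to 1575 CPM in melatonin 1 to 3 and 1749.8 CPM in melatonin 4. Of its 16 tested genes, 2 passed upwards and 8 downwards with all libraries (62.5%, against 36.5% of all genes). Over these 16 genes melatonin 4 was the highest of its group in 6 and the lowest in 8, with a median ratio to melatonin 1 to 3 of 0.948. Acta2 measured 371.2 to 389.6 CPM in melatonin 1 to 3 and 641.7 CPM in melatonin 4, and Tagln 182.6 to 225 CPM and 360.5 CPM, whereas Myh11 measured 10.5 to 11.6 CPM and 6.22 CPM. Log2 fold changes were -1.23 ± 0.18 for Acta2 and -1.02 ± 0.20 for Tagln, which passed, and -0.25 ± 0.19 for Myh11, which did not, and without melatonin 4 they were -1.45, -1.27 and -0.07.

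Schwann cell genes summed to 90.9 to 107.1 CPM in vehicle, 126.2 to 136.5 CPM in melatonin 1 to 3 and 99 CPM in melatonin 4. Endothelial genes summed to 50 to 60 CPM, 68.2 to 71 CPM and 58.1 CPM in the same order. In both sums melatonin 1 to 3 lay above all vehicle libraries, as in the summed sarcomere genes, while melatonin 4 lay within the vehicle range. Single genes of these lists did not share 1 direction. With all libraries, 4 of 8 tested Schwann cell genes had a positive fold change, and 2 passed upwards and 0 downwards. For endothelial genes 7 of 12 were positive, and 1 passed upwards and 2 downwards. In each list 25% passed, against 36.5% of all genes. Tenocyte genes summed to 4703 to 6188 CPM in vehicle, 4099 to 4552 CPM in melatonin 1 to 3 and 4622 CPM in melatonin 4. The part of any of these cells in the level of the sarcomere genes was not tested.

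Other muscle genes came from 3 further lists of 106 genes, of which 102 were in the table and 92 were tested. With all libraries 10 rose and 19 fell (10.9% and 20.7%, against 18.1% and 18.5% of all genes). With library totals as the scaling 17 rose and 15 fell (18.5% and 16.3%, against 30.8% and 13.5%). Without melatonin 4, 34 passed upwards and 18 downwards of 93, against 19.5% and 19.4% of all genes. Among further sarcomere and Z-disc genes, 4 rose and 10 fell of 47 (29.8%, against 36.5% of all genes). Without melatonin 4 these numbers were 21 and 8, against 38.9% of all genes. The 4 with the smallest p all fell: Hspb7, a small heat shock protein, by 1.99 ± 0.11, Tpm1, a tropomyosin found in many cell types, by 0.63 ± 0.05, Pdlim5 by 0.79 ± 0.07 and Fhl3 by 0.91 ± 0.09 on the log2 scale, with -2.004, -0.63, -0.81 and -0.92 without melatonin 4. Genes named for a small p over all 8 libraries are by that choice ones in which melatonin 4 lay near its group, as in Tpm1 at 240.2, 243.2, 235.5 and 245.6 CPM over melatonin 1 to 4 against 354.3 to 381.2 CPM in vehicle. Tpm2 also fell, by 0.39 ± 0.09 (-0.45 without melatonin 4), though it did not pass in every other setting. With library totals as the scaling it fell by 0.24 with an edgeR adjusted p of 0.0558, and its largest edgeR adjusted p over the other settings was 0.106. Cryab, a small heat shock protein that binds desmin, was near 0 (0.01 ± 0.11, and -0.11 without melatonin 4). Of the cardiac forms, Tnnt2, which also occurs in immature skeletal muscle, measured 8.49 to 13.6 CPM in vehicle, 13.9 to 21 CPM in melatonin 1 to 3 and 4.8 CPM in melatonin 4. Tnnt2 and Actc1 did not pass with all libraries (0.40 ± 0.39 and 0.66 ± 0.31) and passed without melatonin 4 (0.69 ± 0.21 and 0.92 ± 0.17), and Tnni3 (0.28 ± 0.48, and 0.47 without melatonin 4) and Myh6 (0.19 ± 0.37, and 0.19) did not pass.

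Excitation-contraction coupling and membrane genes gave 2 higher and 4 lower of 27 (22.2%, against 36.5% of all genes). Without melatonin 4 they gave 9 and 4, against 38.9% of all genes. Jph2, which ties the sarcoplasmic reticulum to the surface membrane, fell by 1.123 ± 0.10 and the membrane repair gene Dysf by 0.80 ± 0.08 (log2). The broadly expressed calcium pump Atp2a2 fell by 0.39 ± 0.07 and the calcium channel subunit Cacna2d1 by 0.80 ± 0.18. Without melatonin 4 the values were -1.03, -0.81, -0.34 and -0.91, in this order. Atp2a2 did not pass in every other setting (largest edgeR adjusted p = 0.0579). Muscle energy genes gave 4 higher and 5 lower of 18 (50%, against 36.5% of all genes). Without melatonin 4 they gave 4 and 6 of 19, against 38.9% of all genes. Slc2a4, the insulin-responsive glucose transporter of muscle and fat, rose by 2.82 ± 0.20 from 0.744 to 1.117 CPM in vehicle to 4.69 to 7.97 CPM in melatonin, and Cox8b, a cytochrome oxidase subunit of muscle and brown fat, rose by 2.12 ± 0.21. Eno1, the ubiquitous enolase, fell by 1.14 ± 0.08, and Gys1, glycogen synthase, by 0.91 ± 0.09. Without melatonin 4 the log2 fold changes were 2.96 for Slc2a4, 2.14 for Cox8b, -1.18 for Eno1 and -0.82 for Gys1.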

How the data were processed

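Raw gene counts of 8 RNA-seq libraries (4 vehicle, 4 melatonin) were used as the authors deposited them, with 20781 Ensembl genes, no further columns and at least 11 counts per gene over all libraries. Columns with a control prefix were read as vehicle, the one other group. The submitters' processing notes name HISAT2 2.0 and StringTie 1.3.3b among the tools and mm10 as the genome build. How reads were counted, with which annotation and with what regard to strand, is not given in the sources used here. GENCODE M21 matched 20720 gene IDs and not the other 61.

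Genes were filtered with filterByExpr (16565 kept, 4216 not tested), scaled with TMM and compared by edgeR 4.0.16 (R 4.3.3) with the robust quasi-likelihood F-test and group as the only term. The SE is the size of the log2 fold change over the square root of F. Correlations used log2 CPM with a prior count of 2. Other scalings and filters were tried, as were DESeq2 1.42.0, voom in limma 3.58.1, a minimum fold of 1.2, a threshold of 0.01, a replicate block and the omission of each library. Omission combined with DESeq2, limma-voom or the block was added after seeing the data, for melatonin 4 only. Replicate numbers were not taken to pair libraries.

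All 37 members are named. From each of the 3 further muscle lists the 4 genes with the smallest p that passed are named, and a set of cardiac, tropomyosin and cell type marker genes whatever their result. Ube2c, Rabep2, Gm49540, Apol6, Myf6 and Fgfr4 were chosen after their values or overlaps were seen. Members and lists were chosen with earlier results of these data known. Shared words are 50-base stretches of GENCODE transcripts on either strand.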

Additional observations from a re-analysis of the deposited data

Results flagged for a closer look

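Each group of 4 libraries was searched for a highest or lowest value whose gap to the next, as a share of the group's range, exceeded Dixon's critical value for 4 values, and 5 of the 74 groups examined (35 tested genes and 2 summed levels in vehicle and in melatonin) met this; chance alone flags about 1 in 20 groups (5%). Only 1 of the 5 was melatonin 4: the gap was 0.884 of the range for the low Myh2 of that library. Melatonin 2 had a high Mb (0.882 of the range). Vehicle 2 had a low Casq2 (0.883) and a high Myl4 (0.855), the latter within a vehicle range of 31 to 31.4 CPM. Vehicle 1 had a high Myoz2 (0.862).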

How the results depend on the processing

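With all 8 libraries the members gave 1 higher and 1 lower gene. Members called higher numbered 2 with library totals, 2 without a filter (Acta1 and Pvalb) and 2 with the non-robust fit. They numbered 5 with DESeq2, 0 with a minimum fold of 1.2 and 0 at a threshold of 0.01. Members called lower numbered 2 with DESeq2 and 0 at a threshold of 0.01. At a mean CPM of at least 1 they numbered 0, but Myoz1 was not among the 27 members tested there. With the replicate block 0 were higher and 0 lower (29.8% of all genes passed; unadjusted p under 0.05 for 3; edgeR adjusted p = 0.0841 for Acta1 and 0.0769 for Myoz1). Same-numbered libraries correlated over genes at -0.0461 to 0.0354 after centring on their group, and no library correlated best with its own number in the other group, so the numbers do not show a pairing. Leaving out single libraries gave 1 to 22 higher and 0 to 2 lower members, the upper ends without melatonin 4. These counts include Pvalb, which enters only through its higher melatonin counts; without it 0 were higher in the other 7 omissions and 21 without melatonin 4. Without melatonin 4, an omission combined with other tools after seeing the data, DESeq2 gave 26 higher and 2 lower, limma-voom 23 and 1 (Pvalb counted in both), and the replicate block 14 and 1. Over all genes, 2992 were higher; this count was 5099 with library totals, where the median over all genes shifted from 0.01 to 0.17 (log2), 1455 with the minimum fold and 1754 at a threshold of 0.01. Further muscle genes called higher (10 of 92, against 18.1% of all genes) numbered 17 with library totals (30.8%) and 7 to 34 with single libraries left out. The count was 7 without vehicle 1 (14.3% of all genes higher) and 34 without melatonin 4 (19.5%). Without melatonin 4 it was 33 with DESeq2, 34 with limma-voom and 26 with the replicate block. In these 3 fits 40.2, 39.1 and 29.3% of all genes passed in either direction. Further muscle genes called lower (19 of 92, against 18.5% of all genes) numbered 12 with the minimum fold (12.3%). RLE and upper-quartile factors kept every member on its side of the threshold.

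Signs turned in genes near 0, with log2 values as follows. With library totals they were 0.10 for Myh2, 0.14 for Myh4 and 0.12 for Ttn. Without melatonin 4 they were 0.17, 0.36 and 0.29 with DESeq2, 0.21, 0.38 and 0.42 with limma-voom, and 0.27, 0.55 and 0.37 with the replicate block, in the same order. With single libraries left out the ranges were -0.21 to 0.18 for Myh2, -0.35 to 0.37 for Myh4, -0.33 to 0.47 for Ttn, -0.15 to 0.45 for Tcap, -0.11 to 0.43 for Des, -0.12 to 0.51 for Tnni3 and -0.11 to 0.10 for Cryab. Tcap was -0.026 with limma-voom. Cryab was -0.0033 at a mean CPM of at least 1, -0.0116 with limma-voom and -0.0048 with the replicate block, and -0.12, -0.11 and -0.12 with DESeq2, limma-voom and the block without melatonin 4, where the block gave Myh11 0.0073. The causes were not tested. Depth limits Myl2, Myl3, Myoz1, Pvalb, Ckm and Ckmt2, with at most 36 counts in any library.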
